A study of Homo sapiens with 12 samples.

Results

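THP-1 cells treated with AZ5576, known as an inhibitor of the kinase CDK9, were compared with THP-1 cells treated with THZ531, known as an inhibitor of the kinases CDK12 and CDK13. The comparison used every AZ5576 library and every THZ531 library of the series, which made 6 of its 12 libraries, with 3 libraries in each group. The DMSO vehicle libraries and the libraries of YKL5124, known as a CDK7 inhibitor, were no part of it. It asks how RNA levels differ when the one kinase or the other pair is blocked. THP-1 is a single human monocytic leukaemia line with an MLL-AF9 fusion. Both groups received the inhibitor for 2 hours and 1 mM 4-thiouridine for the last 10 minutes, and the purified RNA was alkylated and mixed with 5% Drosophila S2 material. The labels give no dose, so how far each target was inhibited is unknown. They leave out whether the libraries of a group came from separate cultures, so the p-values rest on library-to-library spread that could be purely technical.

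CDK9 and cyclin T form P-TEFb, the kinase that releases RNA polymerase II from its pause near the promoter. The 7SK small nuclear RNP, with HEXIM1, MEPCE and LARP7, holds a pool of P-TEFb inactive. CDK12 and CDK13 pair with cyclin K and phosphorylate the tail of the polymerase further into the gene. They are known for the transcription of long genes and DNA repair genes, and their loss is known to increase the use of polyadenylation sites inside introns. The libraries were made with a forward QuantSeq kit, which reads the 3′ end of polyadenylated RNA, so a count depends on where the transcript ended as well as on how much was made.

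Counting 1 row per gene, the 3 AZ5576 libraries held 12738767, 5046174 and 12157171 human counts, and the 3 THZ531 libraries held 8617366, 10333891 and 10769878. The first principal component held 84.7% of the variance and separated the groups, with AZ5576 at -60.6 to -57.8 and THZ531 at 58.6 to 59.3. AZ5576 replicate 2, the shallowest library, stood apart on the second component (-29.3, against 13.9 and 16.1 in the other AZ5576 libraries). Human counts per fly count were 15.7, 13.6 and 15.9 under AZ5576 and 14.8, 14.8 and 15.9 under THZ531. These groups overlapped (exact two-sided permutation p = 0.8, where the smallest possible p is 0.1). The human side counts 1 row per gene and the fly side all distinct rows. The ratio therefore compares libraries and gives no absolute amount. Of 19 monocytic marker genes 18 were tested, none was called higher (2 at an unadjusted p under 0.05 by edgeR, 0 called by DESeq2) and 3 were called lower under AZ5576 (CD33, LAPTM5 and TYROBP), with a median log2 fold change of -0.04. With fly scaling 1 was lower and 3 were higher, the median was 0.11, and LAPTM5 (-0.26) was at -0.12 and no longer called. With library size alone the list had 4 higher and 1 lower, and LAPTM5 again lost its call (-0.12). Of 16 markers of other cell types only 2 passed the count filter, 1 of them NKG7 (means of 1.24 CPM under AZ5576 and 0.898 CPM under THZ531), and neither was called by edgeR (0 at an unadjusted p under 0.05) or by DESeq2.

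Of 14659 genes tested, 8248 (56.3%) were called at an adjusted p under 0.05 by edgeR's quasi-likelihood test. Fold changes here are AZ5576 over THZ531. Without the vehicle libraries, a higher value can be a rise under AZ5576 or a fall under THZ531, and these cannot be told apart. The words rise, fall and moved describe only the difference between the inhibitors. Each fold change follows 1 stretch of counts per gene, the one with the highest total. By that measure 4199 genes (28.6%) were higher and 4049 (27.6%) were lower under AZ5576, and 1827 and 1285 of them differed at least 2-fold. The median log2 fold change of all genes was 0.02. The groups did not overlap in 8866 of the 14659 genes, so separated groups were common. List counts below stand against the 28.6% higher and 27.6% lower of all genes. The lists were drawn up with earlier results of these data known. Higher calls made up 50.9% of all calls, but 67.0% when the libraries were scaled to the fly counts and 65.5% with library size alone, and both scalings moved the median of all genes to 0.16. Choosing the stretch on the AZ5576 libraries alone turned 88 calls to the opposite call, and choosing it on the THZ531 libraries alone turned 138. Where this touched a gene named here, both values are given.

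The immediate-early genes, which are switched on within minutes of a stimulus without new protein synthesis, were the group with the most uniform difference. Of 41 genes in this list other than the AP-1 family 32 were tested, and 30 were lower under AZ5576, 26 of them at least 2-fold. None was higher (0 by edgeR at an unadjusted p under 0.05 and 0 by DESeq2 as well), and the median log2 fold change was -2.42. MYC (0.03) and ID3 (-0.25), named because they were the only tested members not called, were the exceptions. IER5, a stress-inducible regulator, had 24.4, 24.9 and 21.1 CPM in the AZ5576 libraries and 268, 284 and 284 CPM in the THZ531 libraries. The groups did not overlap, and IER5 was 11.99-fold lower under AZ5576 (log2 fold change -3.58, SE 0.08, adjusted p = 3.56e-21, n = 3 against 3). Its relative IER2 had 56.0, 50.7 and 51.0 CPM under AZ5576 and 377, 377 and 383 CPM under THZ531, a difference of -2.84 (SE 0.07, adjusted p = 8.52e-21). The THZ531 libraries were close to each other and far above the AZ5576 libraries. SERTAD1, a coregulator of E2F transcription factors, had 1.51, 2.43 and 1.97 CPM under AZ5576, against 58.7, 56.1 and 60.7 CPM under THZ531 (-4.97, SE 0.14, adjusted p = 1.73e-19). IER3 (-4.59) and IER5L (-4.52) were also among the 12 largest falls.

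AP-1 is a family of dimeric transcription factors built from FOS, JUN and related proteins, and the small MAF proteins belong to the same bZIP class. Of 13 genes in this list 12 were tested, 9 were lower under AZ5576, 7 of them at least 2-fold, and the median was -1.51. None was higher by edgeR (0 at an unadjusted p under 0.05) or by DESeq2. JUN had 1.51, 1.12 and 1.81 CPM under AZ5576, against 29.4, 29.6 and 28.9 CPM under THZ531. It was 18.6-fold lower (-4.22, SE 0.16, adjusted p = 5.66e-17). FOS had 3.69, 3.55 and 3.71 CPM under AZ5576 and 37.6, 37.9 and 37.4 CPM under THZ531, which is 10.2-fold lower (-3.35, SE 0.12, adjusted p = 3.75e-17). Neither gene's groups overlapped. The other JUN genes differed less: JUNB had 35.0, 33.6 and 30.5 CPM under AZ5576, against 133, 145 and 152 CPM under THZ531 (-2.12, SE 0.08), and JUND was at -0.34 (SE 0.07). The last exon of JUNB overlaps another gene, so the source of its reads is uncertain, and JUND lost its call with fly scaling (-0.20). Among the FOS relatives, FOSL2 (-1.34) and FOSB (-2.12, at 0.374 to 0.452 CPM under AZ5576 and 1.43 to 2.18 CPM under THZ531) were lower, and FOSL1 (-0.58, not called) had overlapping groups. MAFF (-2.54, at 0.237 to 0.748 CPM under AZ5576 and 1.98 to 2.75 CPM under THZ531), MAFK (-1.68) and BATF (-0.55) were lower. BATF3 (-0.22) and MAFG (0.13, with an overlapping last exon) were not called. MAFG was called higher without AZ5576 replicate 3 (0.20).

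Promoter sequences are shown for FOS and EGR1, since most members of these lists moved in the same direction. The windows run from 250 bases before to 50 bases after the start in the RefSeq table (GRCh38.p14), and capitals mark TATAAA in FOS and CArG boxes, the site of serum response factor, in EGR1.
FOS, chr14:75278578-75278877 (plus strand): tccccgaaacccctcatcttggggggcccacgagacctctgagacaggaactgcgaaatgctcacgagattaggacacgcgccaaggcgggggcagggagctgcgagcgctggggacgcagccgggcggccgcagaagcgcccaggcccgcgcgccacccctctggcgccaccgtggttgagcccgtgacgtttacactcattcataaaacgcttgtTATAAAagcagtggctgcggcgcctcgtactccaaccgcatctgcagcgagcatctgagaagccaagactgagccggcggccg
EGR1, chr5:138465229-138465528 (plus strand): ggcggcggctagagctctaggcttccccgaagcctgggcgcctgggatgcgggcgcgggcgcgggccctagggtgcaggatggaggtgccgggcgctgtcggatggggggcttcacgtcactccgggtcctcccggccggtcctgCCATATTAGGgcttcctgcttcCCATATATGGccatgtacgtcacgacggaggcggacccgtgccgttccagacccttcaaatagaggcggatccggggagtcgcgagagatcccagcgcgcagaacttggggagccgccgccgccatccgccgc
The string TATAAA, on either strand, was present in 8 of the 33 tested immediate-early and AP-1 genes that had a window (24.2%), in 5.32% of the 9508 windows of tested genes and in 12% of all 27305 windows. A CArG box was present in 6.06% (2 of 33, EGR1 among them), 1.06% and 1.29% of the same sets. The palindrome TGACGTCA was present in 9.09% (3 of 33), 3.30% and 1.98%. GGGCGG was present in 69.7%, 70.7% and 44.6%. These matches are descriptions of the window. Sites more than 250 bases before the start were not searched, so a window without a match, as FOS for the CArG box, does not show that the gene lacks the site. EGR1, a zinc finger transcription factor, was lower under AZ5576 (-2.33) and was named for its pair of CArG boxes after its values had been seen.

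**Figure D1:**
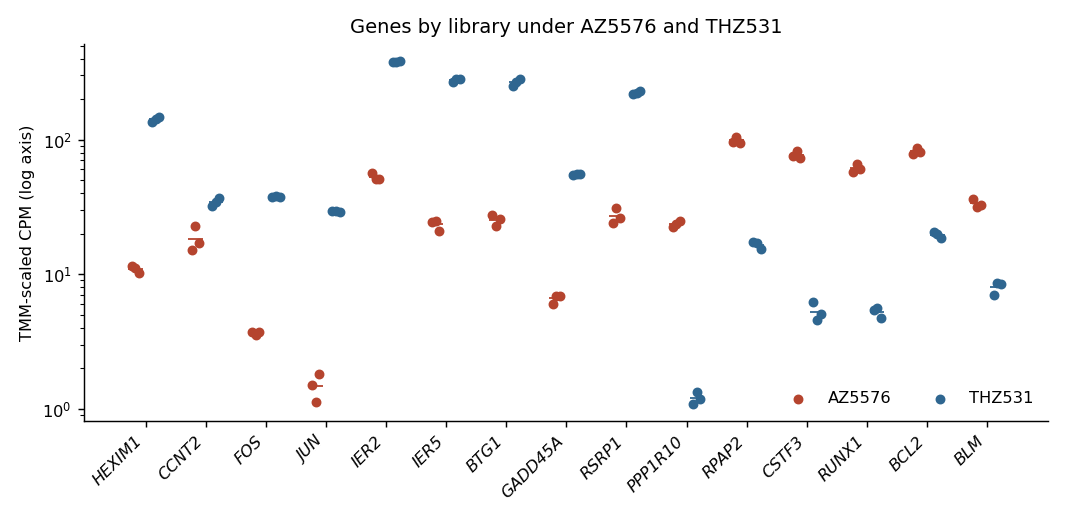
TMM-scaled CPM (log axis) of 15 genes in each of the 3 AZ5576 libraries (left of each pair) and 3 THZ531 libraries (right); points are libraries and lines are group means. In each of the genes the groups do not overlap, as in 8866 of the 14659 genes tested. HEXIM1 had 10.3 to 11.5 CPM under AZ5576 and 135 to 147 CPM under THZ531. BLM had 31.4 to 36.3 CPM under AZ5576 and 7.01 to 8.56 CPM under THZ531.

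The gene that differed most among the parts of P-TEFb and its inhibitory complex was HEXIM1, the protein that blocks CDK9 within 7SK. HEXIM1 (chr17:45148502-45152101) had 11.5, 11.03 and 10.3 CPM under AZ5576, against 135, 142 and 147 CPM under THZ531. It was 12.9-fold lower (-3.69, SE 0.09, adjusted p = 8.52e-21). HEXIM1 shares its last exon region with another counted gene, and with no stated strand setting the reads of that gene cannot be told apart. The target itself, CDK9, had 5.42, 8.04 and 5.21 CPM under AZ5576 and 4.11, 4.79 and 5.05 CPM under THZ531. These groups did not overlap, but CDK9 was not called (0.33, adjusted p = 0.159). With fly scaling it was called higher (0.48). Both of its cyclins were lower: CCNT2 had 15.1, 22.8 and 17.04 CPM under AZ5576, against 32.0, 34.1 and 36.8 CPM under THZ531 (-0.97, SE 0.12), and CCNT1 differed by -0.52 (SE 0.09). MEPCE, which caps 7SK RNA, was lower by nearly the same amount (-0.99, SE 0.09), with 24.1 to 28.3 CPM under AZ5576 and 49.4 to 59.4 CPM under THZ531. Of the 10 genes of the list 9 were tested, 5 were lower and 2 were higher, with a median of -0.24. One of the higher genes was the 7SK binding protein LARP7 (0.20, adjusted p = 0.0395). LARP7 lost its call when any 1 library other than AZ5576 replicate 2 was left out (0.15 to 0.22) and with the replicate block (0.20).

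Among the other transcriptional kinases and cyclins, 7 of 13 genes were lower and 2 were higher under AZ5576, with a median of -0.20. DESeq2 called 4 lower. The higher ones were CDK13, one of the kinases that THZ531 targets, and CDK19 of the Mediator kinase module (0.81, SE 0.09). CDK13 had 21.4, 23.0 and 24.4 CPM under AZ5576, against 13.2, 11.7 and 10.6 CPM under THZ531 (0.96, SE 0.12, adjusted p = 1.56e-07). CDK12 differed little, with 59.6, 58.9 and 52.2 CPM under AZ5576 and 68.6, 64.7 and 61.8 CPM under THZ531 (-0.20, adjusted p = 0.0335). Its call was lost without AZ5576 replicate 3 (-0.12), without THZ531 replicate 1 (-0.15) or 2 (-0.20), with fly scaling (-0.05) and with DESeq2 (-0.20). CCNK, the cyclin of both kinases, was not called (-0.11, overlapping last exon) but was called without AZ5576 replicate 2 (-0.18). CDK7, the kinase of TFIIH, had 2.11, 3.37 and 1.97 CPM under AZ5576 and 5.56, 6.93 and 4.75 CPM under THZ531 (-1.32, SE 0.23). Its partners CCNH (-0.52) and MNAT1 (-0.52) were lower, but CCNH lost its call without AZ5576 replicate 1 (-0.39) and MNAT1 without THZ531 replicate 3 (-0.41). MNAT1 also reached 0.00 with the stretch chosen on AZ5576 alone. The L cyclins, which pair with the CDK11 kinases, were lower (CCNL1 -0.99, CCNL2 -0.52), and CDK11A (-0.11) and CDK11B (0.07) were not called. CCNC, the cyclin of CDK8 and CDK19, was at -0.19 and lost its call in several settings, among them the replicate block (-0.18) and the omission of AZ5576 replicate 1 or 3 or of THZ531 replicate 2 or 3 (-0.18 to -0.14).

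Genes for phosphatases of the polymerase tail included the largest rise among protein-coding genes with at least 10 CPM in a group. PPP1R10, also called PNUTS, targets protein phosphatase 1 to the polymerase. PPP1R10 (chr6:30600400-30618612) had 22.4, 23.7 and 24.8 CPM under AZ5576, against 1.09, 1.32 and 1.19 CPM under THZ531. It was 19.4-fold higher (4.28, SE 0.18, adjusted p = 3.40e-16), but the stretch with the most THZ531 counts gave -0.43. RPAP2, a phosphatase that acts early in transcription, had 96.2, 104 and 95.1 CPM under AZ5576 and 17.3, 16.9 and 15.4 CPM under THZ531 (2.57, SE 0.09, adjusted p = 4.76e-18). CTDP1 (1.93, SE 0.15), SSU72 (0.63) and CTDSP1 (0.34), each a phosphatase of the tail, were also higher. In all, 6 of 13 genes were higher and 3 were lower (median 0.12, or -0.04 with the stretch chosen on THZ531 alone). The lower ones were the catalytic subunits PPP1CB (-0.37) and PPP1CC (-0.34) and the phosphatase CTDSP2 (-0.33), all of which lost their calls with fly scaling (-0.22, -0.21 and -0.18). CTDSP2 also lost its call without AZ5576 replicate 1 (-0.19) or 3 (-0.28) or without THZ531 replicate 1 (-0.29). CTDSPL2 (0.20, overlapping last exon) lost its call without AZ5576 replicate 2 (0.17) or THZ531 replicate 1 (0.15) or 3 (0.22). WDR82 and TOX4, the partners of PPP1R10, were at 0.12 and -0.12 and were not called, though WDR82 was called higher without AZ5576 replicate 2 (0.16).

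Of 26 pausing and elongation factors, 12 were lower, 5 were higher (3 without AZ5576 replicate 3) and the median was -0.23. EAF1, a partner of the ELL elongation factors (-1.56, SE 0.10, overlapping last exon), and CTR9 of the PAF1 complex (-0.69, SE 0.07) were the lower members with the smallest adjusted p. AFF1, a scaffold of the super elongation complex (0.48), and SUPT16H of the histone chaperone FACT (0.29) were the corresponding higher members.

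Cleavage and polyadenylation factors, which cut the transcript and add its tail, split in both directions: 10 of 26 were higher and 12 were lower, with a median of -0.05 that turned positive with fly scaling. CSTF3, a subunit of the cleavage stimulation factor, had 75.0, 82.4 and 73.6 CPM under AZ5576, against 6.16, 4.58 and 5.05 CPM under THZ531 (3.87, SE 0.11, adjusted p = 3.88e-19). RBBP6 had 69.9, 79.1 and 70.8 CPM under AZ5576 and 11.7, 12.2 and 11.7 CPM under THZ531 (2.61, SE 0.09). Neither gene's groups overlapped, yet both turned negative with the stretch that had the most THZ531 counts (CSTF3 -0.20, RBBP6 -3.54). SCAF8, known to keep transcription from ending early (-1.94, overlapping last exon), and the polymerase tail binding protein RPRD2 (-0.97) were lower. CSTF3 and RBBP6 are 2 cases of a wider pattern, in which the ends of the same gene moved apart.

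For 3404 protein-coding genes, counts were available at an upstream and a downstream annotated 3′ end that did not overlap. The share of the upstream end was lower under AZ5576 in 1219 of these genes (35.8%) and higher in 139 (4.08%) by edgeR's diffSpliceDGE at an adjusted p under 0.05. The second count was 87 without THZ531 replicate 2 and 82 without THZ531 replicate 3. The median log2 fold change was -0.32 at upstream ends and 0.10 at downstream ends. In 821 of the 1219 genes the upstream end was below 0 and the downstream end above 0, and in 75 of the 139 it was the other way round. An end with counts in only 1 group can enter through that group, so the count was repeated for 2132 genes with at least 10 counts at both ends in every library. There the upstream share was lower under AZ5576 in 624 and higher in 103, and the medians were nearer to 0, at -0.21 upstream and 0.03 downstream. The median difference between the ends was -0.40 in all 3404 genes and -0.23 in these 2132. This comparison was added after the data had been seen.

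**Figure D2:**
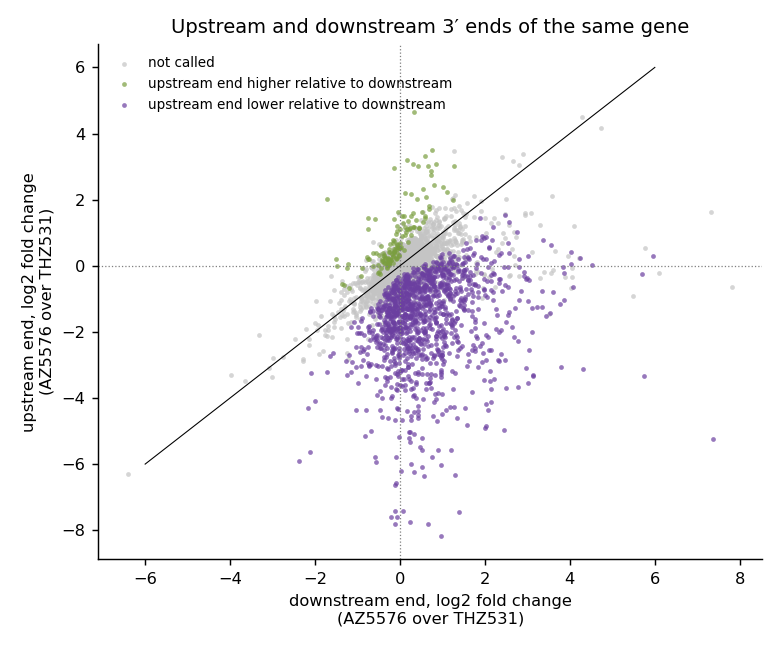
Log2 fold change (AZ5576 over THZ531) of the upstream end (vertical axis) against the downstream end (horizontal axis) of 3404 protein-coding genes; each point is a gene, and the diagonal marks equal change. The 1219 genes with a lower upstream share under AZ5576 lie below the diagonal and the 139 with a higher upstream share lie above it.

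Long genes showed the pattern in a larger share than short ones. The upstream share was lower under AZ5576 in 22% of 1137 genes under 30 kb, in 37.4% of 1413 genes of 30 to 100 kb and in 51.5% of 854 genes over 100 kb. The median difference between upstream and downstream log2 fold changes was -0.11, -0.45 and -1.04 in these classes. Among the genes with at least 10 counts at both ends in every library, the shares were 18.2% of 776, 30.6% of 877 and 44.9% of 479 genes, and the median differences were -0.02, -0.29 and -0.63. These shares are descriptions, with no test between the classes. MED13, a subunit of the Mediator kinase module, was one of the genes with opposite ends. At its upstream end MED13 had 1.35, 0.187 and 1.26 CPM under AZ5576, against 27.5, 33.4 and 35.4 CPM under THZ531. At its downstream end, 67.8 kb away, it had 30.6, 36.5 and 35.3 CPM under AZ5576 and 8.58, 8.66 and 7.53 CPM under THZ531 (log2 fold changes -4.84 and 2.04, adjusted p of the difference 6.28e-25). The lowest library count at these MED13 ends was 1 read, so the size of the upstream difference is imprecise. Each group was thus high at one end and low at the other. RBBP6 had 1.35, 2.24 and 1.58 CPM upstream under AZ5576, against 17.2, 18.7 and 21.1 CPM under THZ531. Downstream, at an end 13.1 kb further on, it had 21.2, 26.5 and 21.2 CPM under AZ5576 and 3.26, 2.65 and 2.48 CPM under THZ531 (adjusted p of the difference 3.90e-22). RC3H2, an RNA-binding ubiquitin ligase that promotes mRNA decay, was at -4.19 upstream and 2.02 downstream. BCL2, an inhibitor of apoptosis, was at -4.36 at an end 190 kb upstream of its last one, with 0.452 to 0.631 CPM under AZ5576 and 10.4 to 12.2 CPM under THZ531. RC3H2 and BCL2 also had under 10 counts at an end in some library, with a lowest count of 3 in each.

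In FANCA, a Fanconi anaemia protein, the upstream end carried most of the THZ531 counts. It had 5.50, 6.73 and 5.60 CPM under AZ5576, against 56.7, 60.3 and 54.2 CPM under THZ531. At the downstream end, 60.8 kb further on, FANCA had 11.1, 9.91 and 9.54 CPM under AZ5576 and 4.95, 6.52 and 5.75 CPM under THZ531. The gene was therefore called lower by its upstream stretch (-3.30) and was higher by its downstream end (0.82), and the ends differed with an adjusted p of 3.03e-13. RUNX1, a haematopoietic transcription factor, was at -1.42 upstream and 3.53 downstream (adjusted p of the difference 9.74e-23). PPP1R10 did not show the pattern at the ends compared: its upstream end (4.50) and its downstream end (4.28) were both higher under AZ5576 (adjusted p of the difference 0.793, with a lowest library count of 0). In CSTF3 the upstream end was near 0 (-0.22) and the downstream end was higher (3.87).

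For 3 of these genes a window of 30 bases is shown from near each of the annotated ends that were compared. It lies within the last 50 bases of the transcript and was placed to hold the hexamer where one was found, so it can stop short of the end itself. The sequences are taken from the GENCODE v29 transcripts (GRCh38), and capitals mark the polyadenylation hexamer, AATAAA or ATTAAA, where the window holds one.
FANCA upstream end, chr16:89798358-89798387 (minus strand): aaacagtgAATAAAgcactgtgtgatttcc
FANCA downstream end, chr16:89737549-89737578 (minus strand): taaagaaacctcagaaagctatttccttaa
RC3H2 upstream end, chr9:122890172-122890201 (minus strand): ttgatataATTAAAgataaatttgtttttg
RC3H2 downstream end, chr9:122844560-122844589 (minus strand): atgcacaaAATAAAattatttgtccacctt
RUNX1 upstream end, chr21:34832961-34832990 (minus strand): ggaaaatttccaAATAAAtctttccagaag
RUNX1 downstream end, chr21:34787810-34787839 (minus strand): gaatggcaAATAAAcagtttgacaagtaca
One of these hexamers stood within the last 50 bases of 44.4% of the 1219 upstream ends whose share was lower under AZ5576 and of 20.9% of the upstream ends in the 2046 genes not called. Downstream ends held one in 83.0% and 77.8% of the same genes. Over all 3404 genes, a hexamer stood at 28.9% of upstream and 79.8% of downstream ends. The 3 genes shown all hold one upstream, so they do not stand for upstream ends in general. At the upstream end of CSTF3 none was found. A hexamer is known as the binding site of the cleavage machinery, and its presence here is a match of letters. The table gives no coordinates, so the position at which a transcript was cut was not measured. Ends that lie in A-rich stretches can also be primed internally, which was not tested.

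**Figure D3:**
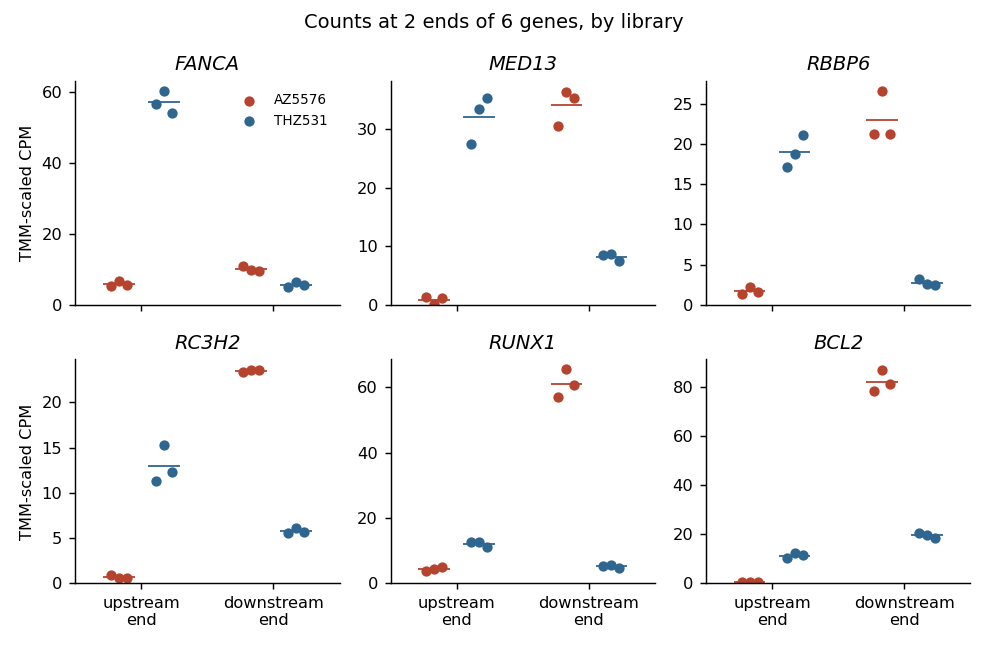
TMM-scaled CPM at the upstream and downstream ends of FANCA, MED13, RBBP6, RC3H2, RUNX1 and BCL2; AZ5576 libraries are left and THZ531 libraries right of each pair, points are libraries and lines are group means. At each upstream end the THZ531 libraries lie above the AZ5576 libraries, and at each downstream end they lie below.

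Gene length separated the calls across all protein-coding genes as well. Of 2136 genes under 10 kb, 19.0% were higher and 33.5% were lower under AZ5576, and of 710 genes over 200 kb, 54.8% were higher and 12.1% were lower. The median log2 fold change was -0.09, -0.05, 0.07, 0.23 and 0.48 in the classes under 10 kb, 10 to 30, 30 to 100, 100 to 200 and over 200 kb. At least 2-fold higher calls made up 5.95% of the shortest and 26.3% of the longest class. Across 11169 protein-coding genes, the log2 fold change had a Pearson r of 0.18 and a Spearman rho of 0.22 with log10 length. This describes genes of the same 6 libraries, which are not independent, and length goes with expression: median levels were 20.8 CPM in the shortest and 8.53 CPM in the longest class. Without genes whose last exon overlaps another gene, the shares were 17.4% and 35.0% under 10 kb and 54.6% and 12.1% over 200 kb. Of 177 protein-coding genes with a single exon 18.1% were higher and 41.2% were lower, against 30.9% and 28.1% of 10992 genes with several exons.

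**Figure D4:**
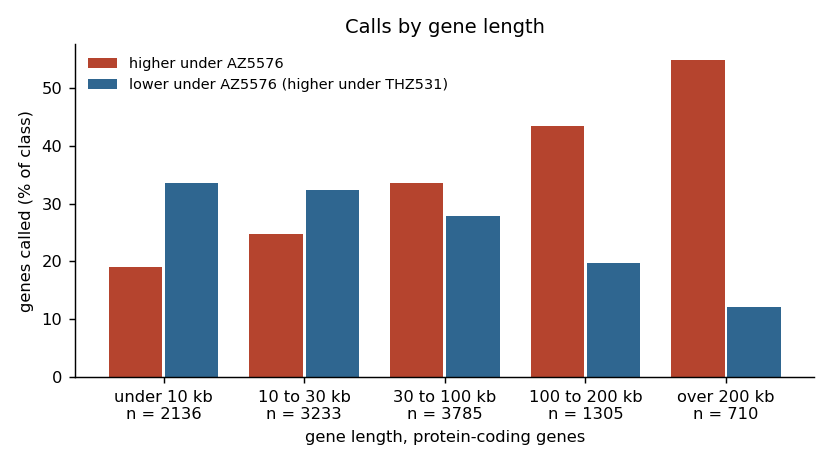
Share of protein-coding genes called higher and called lower under AZ5576 (vertical axis, % of the class) by gene length (horizontal axis); bars are shares of the genes in a class and have no replicate error. Higher calls go up from 19.0% in the shortest to 54.8% in the longest class, and lower calls go down from 33.5% to 12.1%.

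Homologous recombination and Fanconi anaemia genes, which repair double-strand breaks and crosslinks, were mostly higher under AZ5576. Of 39 genes 38 were tested, 27 were higher, 4 were lower and the median was 0.84. BLM, the helicase mutated in Bloom syndrome, had 36.3, 31.4 and 32.8 CPM under AZ5576, against 7.01, 8.56 and 8.52 CPM under THZ531 (2.06, SE 0.12, adjusted p = 1.69e-13). BARD1, the partner of BRCA1, had 38.02, 38.1 and 37.8 CPM under AZ5576 and 16.2, 14.7 and 14.5 CPM under THZ531 (1.33, SE 0.10). The groups did not overlap in either gene, but BARD1 turned to -0.89 with the stretch chosen on THZ531 alone. FANCA was lower by its upstream stretch, as described above, and turned to 0.82 with the stretch chosen on AZ5576 alone. RAD51C, a recombination protein, was lower (-0.57) and turned to 0.14 with summed stretches. DNA damage checkpoint genes did not share a direction, with 9 of 20 higher (45%), 8 lower (40%) and a median of 0.12. Over all genes tested the shares were 28.6% and 27.6%. The checkpoint clamp loader RAD17 (0.78) was higher, and so was the ATR partner ATRIP (2.87, at 3.37 to 5.68 CPM under AZ5576 and 0.495 to 0.846 CPM under THZ531, overlapping last exon). The ubiquitin ligase RNF168 (-1.72) and the phosphatase CDC25A (-0.90) were lower.

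Targets of p53 in this list were mostly lower under AZ5576: of 23 genes 22 were tested, 14 were lower, 3 were higher and the median was -0.80. GADD45A, a growth arrest protein, had 6.02, 6.92 and 6.86 CPM under AZ5576, against 54.2, 55.4 and 55.7 CPM under THZ531 (-3.08, SE 0.10, adjusted p = 8.04e-18). BBC3, which encodes the death activator PUMA, had 11.7, 10.3 and 14.4 CPM under AZ5576 and 75.3, 75.9 and 82.8 CPM under THZ531 (-2.65, SE 0.10). PLK2, a polo-like kinase, was the largest fall of the comparison by the naming rule, with 0.00, 0.561 and 0.079 CPM under AZ5576 and 11.6, 12.02 and 12.1 CPM under THZ531. Its fitted log2 fold change of -6.40 rests on few AZ5576 counts. The damage recognition proteins DDB2 (0.83) and XPC (0.93) were higher. THP-1 is known to lack functional p53, so the list's name describes where these genes are known from.

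In the BCL2 family, 15 of 18 genes were tested, 3 were higher, 5 were lower (3 without overlapping last exons) and the median was -0.05, which turned positive with fly scaling (0.10). BCL2 had 78.5, 87.1 and 81.6 CPM under AZ5576, against 20.4, 19.9 and 18.5 CPM under THZ531 at its last end (2.07, SE 0.08, adjusted p = 2.47e-16). Its mitochondrial relative BCL2L13 was higher (1.51), but reached -0.16 with the stretch chosen on THZ531 alone. The death activators BBC3 and BCL2L11 (-2.51, overlapping last exon) were lower. MCL1, an inhibitor of apoptosis like BCL2, was lower too (-1.03, overlapping last exon). It had means of 207 CPM under AZ5576 and 421 CPM under THZ531, and is named outside the rule for named genes. The calls therefore did not divide the family by role.

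Of 23 NF-kB and inflammatory genes 16 were tested, 10 were lower, 3 were higher and the median was -0.67. NFKBIA, the inhibitor of NF-kB that its own target pathway induces, had 72.1, 72.9 and 77.2 CPM under AZ5576, against 169, 183 and 162 CPM under THZ531 (-1.21, SE 0.07). IRF1 was lower (-1.81), and the subunits RELB (0.78) and REL (0.54, overlapping last exon) were higher. Regulators known from MLL-AF9 leukaemia split, with 10 of 24 tested genes higher (41.7%), 7 lower (29.2%) and a median of 0.15. Over all genes tested the shares were 28.6% and 27.6%. RUNX1 had 57.0, 65.4 and 60.8 CPM under AZ5576 and 5.44, 5.60 and 4.75 CPM under THZ531 (3.53, SE 0.11, adjusted p = 2.62e-18), and -1.40 with the stretch chosen on THZ531 alone. MEF2C (1.61) was higher, and ZEB2, which had 94.6, 99.6 and 85.0 CPM under AZ5576 and 327, 344 and 338 CPM under THZ531, was lower (-1.86, SE 0.07). HOXA10, with an overlapping last exon, was lower too (-1.04). RUNX1, MEF2C, ZEB2 and HOXA10 all encode transcription factors.

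Genes of mRNA turnover and splicing held some of the most clearly separated values. BTG1, an antiproliferative protein that recruits the deadenylase, had 27.4, 22.6 and 25.9 CPM under AZ5576, against 249, 269 and 280 CPM under THZ531 (-3.37, SE 0.08, adjusted p = 8.52e-21). Its relative BTG3 was lower as well (-2.01). RC3H2 was higher (2.02, or -4.17 with the stretch chosen on THZ531 alone and -0.03 with summed stretches), and so was the exonuclease XRN1 (0.88). Of the 29 decay genes 13 were lower and 7 were higher, with a median of -0.17. Among 25 SR proteins and CLK kinases, the factors that define splice sites and the kinases that phosphorylate them, 17 were lower and the median was -0.42. RSRP1, a serine and arginine rich protein, had 24.1, 31.2 and 26.1 CPM under AZ5576 and 218, 224 and 229 CPM under THZ531 (-3.08, SE 0.08), and CLK1 was at -2.14. The groups of RSRP1 lay far apart. The 4 higher genes of this list included CLK2 (0.47) and the kinase SRPK1 (0.26, and 0.23 with the call lost without THZ531 replicate 3). That count was 2 without THZ531 replicate 1 or 2 and 1 without THZ531 replicate 3.

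Stress genes were lower under AZ5576 or not called in most cases. Of 18 heat shock genes 15 were lower and the median was -0.48 (11 lower and -0.35 with fly scaling). None was higher by edgeR (0 at an unadjusted p under 0.05) or by DESeq2. HSPA1B, an inducible chaperone with a near-identical copy in HSPA1A, so that the split of their reads is uncertain, had 48.0, 54.4 and 38.5 CPM under AZ5576, against 103, 120 and 131 CPM under THZ531 (-1.36, SE 0.10). Its co-chaperone BAG3 was at -1.24. In the integrated stress and unfolded protein response, 12 of 19 tested genes were lower and 3 were higher (1 without THZ531 replicate 3), with a median of -0.36. SESN2 (-2.90) and DDIT4 (-1.61), both inhibitors of mTORC1 signalling, were lower. The cystine transporter SLC7A11 (0.38) was higher. DDIT3 (0.50, overlapping last exon) was called higher with overlapping groups and lost that call without AZ5576 replicate 3 (0.34) or THZ531 replicate 3 (0.39).

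**Figure D5:**
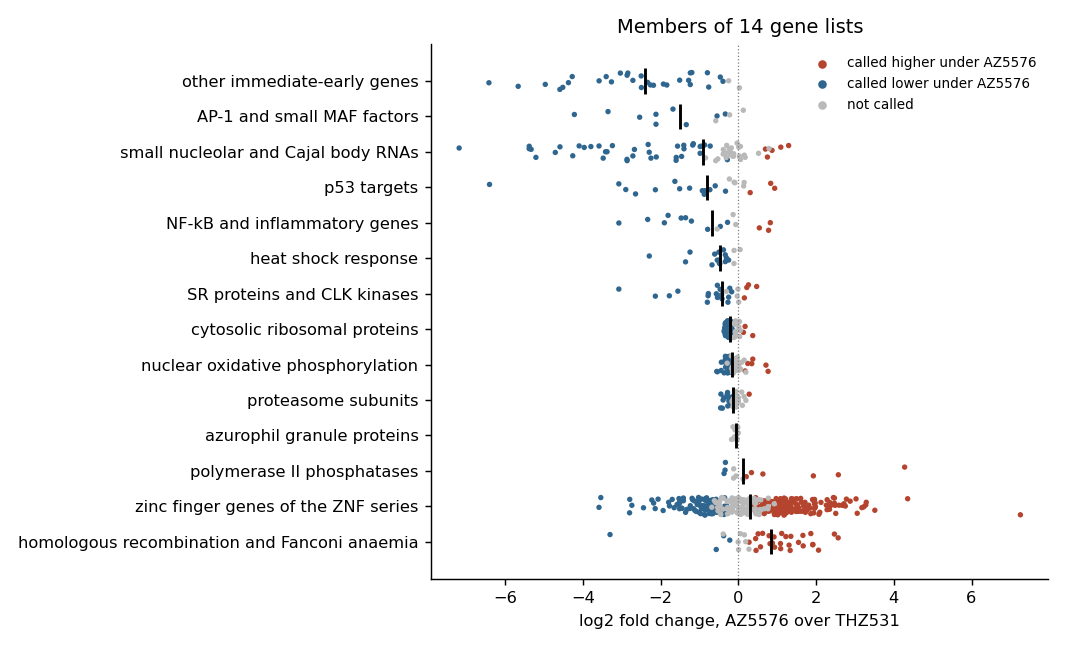
Log2 fold change (AZ5576 over THZ531) of the tested members of 14 gene lists; each point is a gene, coloured by its call, and vertical bars are list medians. The other immediate-early genes have the lowest median (-2.42) and the homologous recombination and Fanconi anaemia genes the highest (0.84) of the lists drawn.

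Genes of the basic cell machinery differed little. Cytosolic ribosomal proteins had a median of -0.21, with 65 of 83 tested genes lower and 3 higher, but 0 were lower and 3 higher with fly scaling, where the median was -0.07. RPL5 (-0.35) and RPL26 (-0.37) had the smallest adjusted p, and both lost their calls with fly scaling (-0.21 and -0.23). The higher count was 1 without AZ5576 replicate 1 or without THZ531 replicate 2 or 3. Of 79 nuclear genes of oxidative phosphorylation 38 were lower and 6 higher (median -0.15), against 4 and 8 with fly scaling. The complex I subunits NDUFS1 (0.76) and NDUFV3 (0.71) were higher, and NDUFA5 (-0.56) and NDUFC2 (-0.54) of the same complex were lower. Of 36 proteasome subunits 16 were lower and 1, PSMB5 (0.28), was higher, against 5 and 2 with fly scaling. The higher count was 2 without AZ5576 replicate 3, and 10 were lower without overlapping last exons. Among 20 aminoacyl-tRNA synthetases 5 were lower and 2 were higher (median 0.00), and 4 were higher without AZ5576 replicate 2. None of the 10 azurophil granule genes was called by edgeR or by DESeq2 (1 was lower at an unadjusted p under 0.05, and 1 was called lower without AZ5576 replicate 2), and their log2 fold changes ran from -0.17 to 0.00.

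Replication, division and coactivator genes did not share a direction. Over all genes tested 28.6% were higher and 27.6% were lower. The G1/S list (35.5% and 29%) and the Mediator and Integrator list (31.1% and 33.3%) lay near these shares. In the G2/M list the shares were 23.3% and 43.3%. Of 31 G1/S and replication genes tested, 11 were higher and 9 lower (median 0.00), with the polymerase subunit POLA2 (1.11) and the origin factor MCM10 (0.97) higher and the GINS subunit GINS3 (-1.34) and the sliding clamp PCNA (-0.80) lower. Of 30 G2/M genes 7 were higher and 13 lower (8 without AZ5576 replicate 1), with a median of -0.06 that turned positive with fly scaling. The mitotic kinesin KIF14 (1.07) and the cyclin CCNF (0.85) were higher, and UBE2C (-0.64) and BUB3 (-0.57), of the anaphase control, were lower. Of 45 Mediator and Integrator subunits tested, 14 were higher and 15 lower (median 0.07). MED13 (2.04), by its downstream end, turned to -0.27 with summed stretches and to -4.82 with the stretch chosen on THZ531 alone. INTS7 (1.83) was higher and MED4 (-1.16) was lower, and INTS10 was lower (-2.23, or 0.29 with the stretch chosen on AZ5576 alone). Of 356 tested genes of the ZNF series, which encode zinc finger proteins, 156 were higher and 92 were lower, with a median of 0.29. ZNF526 had 49.7, 46.0 and 51.4 CPM under AZ5576, against 4.47, 5.71 and 4.85 CPM under THZ531 (3.29, SE 0.12), whereas ZNF503 had 6.55, 6.73 and 6.94 CPM under AZ5576 and 76.2, 78.2 and 80.8 CPM under THZ531 (-3.54, SE 0.10). ZNF131 was lower (-2.18, SE 0.10), but was at 0.99 with the stretch chosen on AZ5576 alone and at 0.0418 with summed stretches.

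The remaining genes among the 12 largest rises and 12 largest falls came from many functions. The rises included CCDC30 (4.24), the phosphodiesterase PDE1B (4.03), the progestin receptor PAQR8 (3.98), the mitochondrial release factor MTRFR (3.63), the sialyltransferase ST3GAL3 (3.57), FRY (3.55), IPCEF1 (3.47) and the deubiquitinase USP37 (3.33). PAQR8 had 42.5, 46.4 and 47.8 CPM under AZ5576, against 2.78, 2.96 and 2.87 CPM under THZ531. CCDC30 was no longer called with the stretch chosen on THZ531 alone (0.27). The falls included the Hippo pathway kinase LATS1 (-5.20), ARMH3 (-5.04), the ESCRT subunit MVB12B (-4.96), MICAL3 (-4.90), C11orf96 (-4.67), the G protein regulator RGS2 (-4.65), FAM118A (-4.61) and the corepressor SIN3A (-4.43). C11orf96 had 1.05, 0.935 and 1.42 CPM under AZ5576 and 30.4, 31.0 and 29.6 CPM under THZ531. Of these falls, LATS1 (0.52), ARMH3 (0.21), MVB12B (2.45), MICAL3 (2.00) and SIN3A (0.32) turned positive and FAM118A (-0.28) lost its call with the stretch chosen on AZ5576 alone, and MVB12B was at 0.17 with summed stretches. C11orf96 and RGS2 kept their sign and call there. Under AZ5576, LATS1 had 0.301 to 0.394 CPM, ARMH3 0.561 to 0.979 CPM and RGS2 0.079 to 1.12 CPM. The sizes of their log2 fold changes therefore rest on few AZ5576 counts.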

How the data were processed

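Total 3′ end reads of THP-1 cells were compared between 3 AZ5576 and 3 THZ531 libraries. The deposited values are raw counts of reads. Per the submitters' processing notes, the tools were edgeR 3.32.1, Trim Galore 0.6.5 and bcl2fastq 2.17.1.14, with builds dm6 and hg38. The aligner, counter, annotation and strand setting were not given in the sources used here. In the table, 3 columns match no label and were not used. Only total counts were analysed here, so RNA made during labelling was not told apart.

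GENCODE v29 (GRCh38) named 251529 of 256726 human rows, and the 5197 unnamed rows held 0.655% to 0.687% of a library's counts and were left out. Rows are overlapping stretches of transcripts without coordinates. Adding up the rows of each gene gave 3.36 to 3.41 times as many counts as taking 1 row, so each gene was followed by its row with the largest sum across the 6 libraries. It can be chosen through the group in which it is high. Of genes with identical counts 93 were dropped. Reads shared with pseudogenes or overlapping genes cannot be told apart.

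Tests used edgeR 4.0.16 in R 4.3.3 (filterByExpr with a minimum count of 10, TMM, quasi-likelihood fit on 6 libraries with group as the only term) and Benjamini-Hochberg adjustment over all genes tested, with a threshold of 0.05. The fit was also run on simulated counts in which 200 of 14321 genes were changed. It called 68% of 1.5-fold and 92% of 2-fold changes, and 6.25% of its calls were false. Far fewer genes were changed there than were called here, so the simulation does not test the scaling of these data. CPM are TMM-scaled, and standard errors were derived from the F value of each log2 fold change. TMM makes each difference relative to other human genes. Ends were compared with diffSpliceDGE for transcripts with 1 row whose last exons do not overlap, each with a total of at least 60 counts. The downstream end is the last one among such transcripts of a gene, and can lie short of the end of the gene, as in CSTF3. The upstream end is the one with the highest total among the rest. Within groups, library pairs differed by more than sampling noise (chi-square 1.71 to 4.52 per gene), so none was treated as a copy.

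Lists were described by counts and medians, with no set test. The members and lists were chosen with earlier results of these data known. Genes named are all tested members of the P-TEFb, kinase, phosphatase and AP-1 lists, the 12 largest rises and 12 largest falls among called protein-coding genes with at least 10 CPM in a group, groups that did not overlap and no overlapping last exon, and the 2 members of every other list with the smallest adjusted p each way. A member of the P-TEFb list is not reported here. Ranges and exceptions fall outside this rule where the text says so. Alternatives were other scalings (RLE, upper quartile, library size, fly counts), DESeq2 1.42.0, other filters, other choices of rows, 9 libraries, a replicate block and leaving out each library.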

Additional observations from a re-analysis of the deposited data

How the results depend on the processing

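With TMM 4199 genes were higher and 4049 lower under AZ5576. The lower count was 2528 with fly scaling (5144 higher) and 2883 with library size alone (5481 higher), while RLE, upper quartile, DESeq2 (3581 higher and 3577 lower), the count filters, 9 libraries, protein-coding genes alone and the choices of rows kept both counts within 1.5 times. Leaving out 1 library gave 3959 to 4468 higher and 3607 to 4230 lower genes, 1119 to 1226 genes with a lower and 82 to 161 with a higher upstream share, and a difference of the log2 human to fly ratio of -0.05 to 0.06. Of 3082 values of 156 named genes under alternatives, 2982 kept their direction and their side of the threshold, 66 lost a call, 12 gained one and 22 turned. Summed rows turned MVB12B to 0.17, RAD51C to 0.14, RC3H2 to -0.0285, MED13 to -0.27 and ZNF131 to 0.0418. The row chosen on AZ5576 alone turned MNAT1 to 0.0049, LATS1 to 0.52, ARMH3 to 0.21, MVB12B to 2.45, MICAL3 to 2.00, SIN3A to 0.32, FANCA to 0.82, INTS10 to 0.29 and ZNF131 to 0.99. The row chosen on THZ531 alone turned PPP1R10 to -0.43, CSTF3 to -0.20, RUNX1 to -1.40, RBBP6 to -3.54, BARD1 to -0.89, BCL2L13 to -0.16, RC3H2 to -4.17 and MED13 to -4.82. By construction, these settings read other stretches of the same gene.

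Libraries of the 2 groups share replicate numbers, but same-numbered libraries did not deviate together (correlations of -0.03, -0.01 and -0.06), so the numbers were not used as pairs. With the replicate block 4048 genes were higher and 3826 lower, 1190 genes had a lower and 127 a higher upstream share, and of the named genes LARP7 (0.20) and CCNC (-0.18) lost their calls. Depth limits genes near the filter: AZ5576 replicate 2 held 5046174 counts at 1 row per gene, and a gene at 1 CPM had few reads in it.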

Other observations

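RNAs outside the protein-coding set also differed between the inhibitors. Small nucleolar RNAs, which guide the modification of ribosomal RNA, normally lack a tail, and which molecules a kit that primes on tails counted at them was not tested. Of 556 small nucleolar and Cajal body RNAs only 70 passed the count filter, 38 were lower and 5 were higher under AZ5576, and the median log2 fold change was -0.91. Of the tested members 34 have a last exon that overlaps an exon of another tested gene. The count of lower members was 19 without overlapping last exons and 71 with no low-count filter. The count of higher members was 3 without THZ531 replicate 2 and 2 without overlapping last exons. SNORD84 had 3.09, 3.55 and 4.42 CPM under AZ5576 and 61.1, 64.9 and 64.6 CPM under THZ531 (-4.10, SE 0.12, adjusted p = 5.36e-19), and SNORA50C was at -3.42; the source of the reads of both is uncertain. SNORD13 (1.29) and SNORD118 (0.87) were higher, with the same limit.

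Of 33 small nucleolar RNA host genes 27 were tested, 13 were lower and 4 were higher (median -0.17), against 8 and 5 with fly scaling. SNHG12 (-1.43) and SNHG25 (-0.95) were lower and SNHG14 (0.44) was higher, each with an overlapping last exon. SNHG30 was higher too (1.43, at 4.14 to 5.42 CPM under AZ5576 and 1.39 to 2.05 CPM under THZ531). Of 71 replication-dependent histone genes, whose main mRNAs lack a tail, 19 were tested, 8 were lower and none was higher (median -0.51), with 9 and 0 at an unadjusted p under 0.05 by edgeR and 4 and 0 called by DESeq2. H4C3 had 1600.4, 1288 and 1438 CPM under AZ5576 and 2345, 2453 and 2367 CPM under THZ531 (-0.73, SE 0.06, adjusted p = 4.93e-10). H2BC21 was at -2.36, with 0.374 to 1.34 CPM under AZ5576 and 3.02 to 4.56 CPM under THZ531.

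By gene type, 44.3% of 386 lincRNA genes were higher and 25.4% lower under AZ5576, and 44.1% of 410 antisense genes were higher and 19.8% lower, against 30.7% and 28.3% of 11169 protein-coding genes. Median levels were 2.38 CPM for lincRNA and 2.26 CPM for antisense genes, against 16.7 CPM for protein-coding genes. With no stated strand setting, reads of an antisense gene cannot be told apart from those of the gene on the other strand. Processed pseudogenes, which can share reads with their parent genes, were called in fewer cases, with 7.70% of 1649 higher and 22.4% lower.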
